A study of Rattus norvegicus with 180 samples.

Results

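MicroRNA (miRNA) profiles of the cerebral cortex, the hippocampus and the thalamus were compared within the same rats. The members are the 9 arrays of these regions from the perfused animals, 3 arrays per region, out of 180 arrays in an atlas of rat organs. The donors were rats 4, 5 and 6 of the atlas, untreated male Sprague-Dawley rats aged 10 weeks whose blood was washed out with saline before dissection, and all 3 regions carried this treatment. The regions were dissected by eye from a sagittal slice of the cerebrum, so each sample is a mixture of all cell types in that piece of tissue. Total RNA was labelled with Cy3 and hybridised to 1-colour Agilent arrays with 717 miRNA entries, of which 39 are a second, differently versioned probe set of a named miRNA. The 3 pairs of regions asked which miRNAs differ between parts of the forebrain, with each rat serving as its own reference.

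Mature miRNAs are short RNAs that guide Argonaute proteins to messenger RNAs and lower their output. Target choice rests mainly on the seed, the bases 2 to 8 counted from the 5' end, so that miRNAs with a shared seed are grouped as a family. The cortex and the hippocampus are dominated by glutamatergic pyramidal or granule neurons and their interneurons. The thalamus relays sensory and motor signals to the cortex, is rich in myelinated axons and lies beside the ventricles and their choroid plexus. In adult brain, miR-128, miR-124, miR-9 and miR-138 are well known neuronal miRNAs, miR-132 and miR-212 are induced through the transcription factor CREB, miR-219 and miR-338 belong to oligodendrocytes, and miR-7 is enriched in neuroendocrine cells.

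The mature sequences of the miRNAs on which the comparisons turn are shown 5' to 3' as RefSeq lists them on GRCr8, with the seed in capitals. Of the names looked up 21 matched a RefSeq entry, and miR-124, miR-335 and miR-383 did not. The first set holds miR-128, both miR-7 members, both miR-34 members and miR-204, and it includes pairs that share a seed.
miR-128: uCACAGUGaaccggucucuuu
miR-7a: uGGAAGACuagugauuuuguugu
miR-7b: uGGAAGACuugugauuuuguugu
miR-34b: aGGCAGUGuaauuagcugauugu
miR-34c: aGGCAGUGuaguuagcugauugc
miR-204: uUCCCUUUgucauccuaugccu
The next set holds the activity-linked pair, the X-linked pair and the myelin miRNAs.
miR-132: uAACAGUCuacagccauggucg
miR-212: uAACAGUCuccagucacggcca
miR-221: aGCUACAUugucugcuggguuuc
miR-222: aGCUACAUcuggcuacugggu
miR-219-5p: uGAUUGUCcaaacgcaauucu
miR-338: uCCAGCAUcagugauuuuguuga
The last set comes from the chromosome 6 cluster and from miRNAs that differed between thalamus and hippocampus.
miR-758: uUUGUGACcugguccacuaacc
miR-380*: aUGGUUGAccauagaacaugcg
miR-433: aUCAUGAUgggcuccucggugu
miR-382: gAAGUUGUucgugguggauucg
miR-344b-5p: aGUCAGGCugcugguuauauuc
miR-873: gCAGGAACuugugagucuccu
Positions are counted from 1 at the 5' end. Between miR-7a and miR-7b the substitution is A10U, outside the shared seed GGAAGAC. Between miR-34b and miR-34c the substitutions are A11G and U23C, outside the shared seed GGCAGUG. The probes of such close pairs may share signal, which was not tested here.

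Between 197 and 217 miRNAs were detected per array, 178 were detected on all 9 arrays, and no spot was saturated. Detection means that the scanner software marked more than 50% of the spots used for that miRNA as well above background. Tested were those 178 miRNAs and 18 more that were detected in all 3 rats in at least 1 region. Counts of miRNAs are counts of array entries, and 4 tested miRNAs are present as a pair of entries. The 9 arrays lay on 4 slides. All regions of rat 5 shared a slide, as did those of rat 6, whereas the thalamus of rat 4 lay on another slide than its cortex and hippocampus. Levels are scaled signal intensities, each array being divided by its 75th percentile over 37 miRNAs detected throughout the atlas, with values under 10.8 set to 10.8. Levels of different miRNAs are not compared, because probes differ in brightness. Differences are on the log2 scale with their standard error (SE) from limma with rat as a block, and adjusted p-values (Benjamini-Hochberg) run over all tested miRNAs, with 0.05 as the threshold.

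The brain miRNAs miR-124 and miR-128 were detected on all 9 arrays. The red-cell miRNAs miR-451 and miR-144 were detected on no array. Along principal component (PC) 1, which accounted for 56.0% of the variation among the tested miRNAs, the thalamus of rats 4, 5 and 6 lay at 8.33, 6.67 and 5.72. On the same axis the cortex lay at -4.32, -4.96 and -4.41, and the hippocampus at -0.49, -5.09 and -1.44. The thalamus thus stood apart, and the hippocampus of rat 5 lay beside the cortex arrays. The heaviest weights were those of miR-7a, miR-7b, miR-758 and the miR-34 probes at the thalamic end and of miR-128 and miR-221 at the other end. Pearson's r between arrays across miRNAs, given as a description, was 0.984 to 0.991 within cortex, 0.976 to 0.991 within thalamus and 0.963 to 0.973 within hippocampus. Every cortex and thalamus array was most like another array of its own region, whereas all 3 hippocampus arrays were most like the cortex of rat 5.

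In thalamus against cortex, 57 miRNAs were higher in thalamus (29.1% of those tested) and 10 were lower (5.1%). In thalamus against hippocampus, 51 were higher in thalamus (26%) and 2 were lower (1.02%). In cortex against hippocampus, 1 was higher in cortex (0.51%) and none was lower (0%), while 30 had an unadjusted p under 0.05. The 3 comparisons share arrays, so their counts are not independent. Groups of 3 that do not overlap were common, with thalamus above cortex for 49.5% of the tested miRNAs and below it for 10.7%, thalamus above hippocampus for 35.7% and below it for 4.59%, and cortex above hippocampus for 7.65% and below it for 6.12%. Across the 3 regions together, 60 miRNAs (30.6%) passed the moderated F test of limma, and 54 of these had their highest mean in thalamus. Under the other 4 scalings, in the order given below, this held for 36 of 52, 27 of 52, 25 of 50 and 26 of 72, and in the last of these 39 were highest in cortex. Among the 178 miRNAs detected on all 9 arrays, for which no region had to be high to enter the test, the counts were 50 higher and 10 lower in thalamus against cortex, 44 and 2 in thalamus against hippocampus, and 1 and 0 in cortex against hippocampus. With no filter, all 717 entries being tested, they were 10 and 2, 2 and 1, and 0 and 0, so most calls given below did not pass in that setting.

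**Figure D1:**
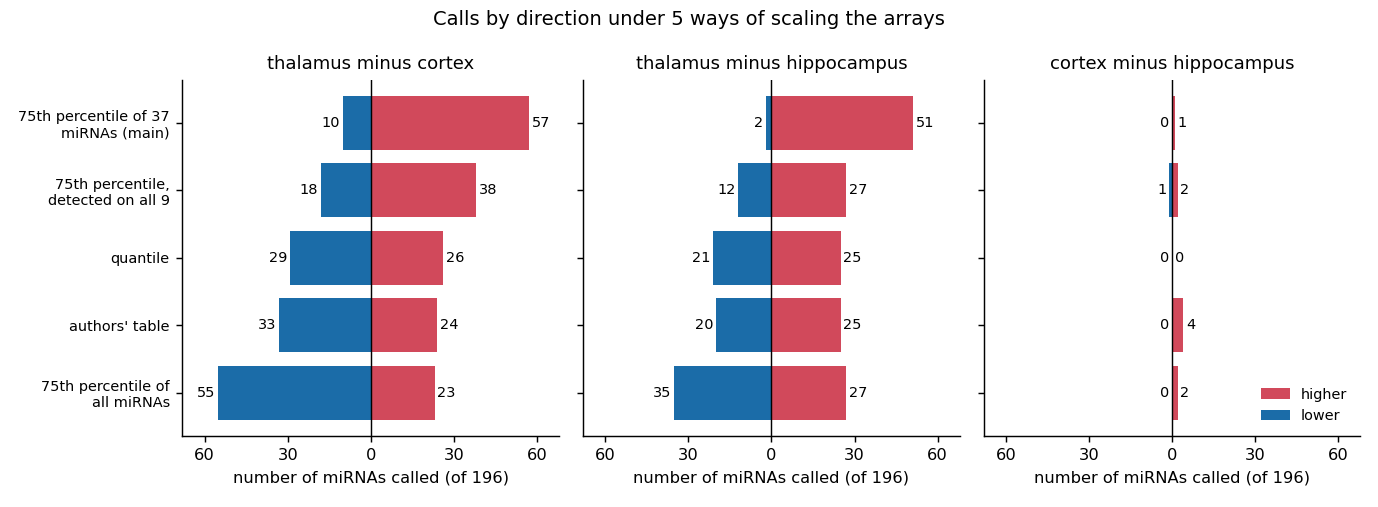
Number of tested miRNAs past adjusted p 0.05, higher or lower, for each pair of regions under 5 scalings of the arrays. The balance between higher and lower in the thalamus moves with the scaling, from 57 higher and 10 lower against cortex to 23 higher and 55 lower.

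The direction of these counts depended on how the arrays were scaled. The median difference over all tested miRNAs in thalamus against cortex was 0.33 as scaled here, 0.06 when the percentile was taken over the miRNAs detected on all 9 arrays, -0.05 after quantile normalization, -0.18 in the authors' own table and -0.22 with the percentile over all miRNAs. The corresponding higher and lower counts were 57 and 10, 38 and 18, 26 and 29, 24 and 33, and 23 and 55. Against hippocampus the median moved from 0.26 to -0.14, and the counts from 51 and 2 to 27 and 35. Each call was tested against no difference and was not recentred on that median. The counts in each direction are therefore not corrected for this shift. In thalamus against cortex, 21 higher miRNAs (10.7%) and 9 lower ones (4.59%) passed under all 5 scalings. In thalamus against hippocampus, 20 higher (10.2%) and 2 lower (1.02%) did so. In cortex against hippocampus none did (0% in each direction). All 21 of the higher miRNAs and 1 of the 9 lower ones, miR-128, also passed with each rat left out in turn in thalamus against cortex. Against hippocampus 10 of the 20 higher and again miR-128 did. Among both sets of higher miRNAs are miR-296* and miR-532-5p, which were detected throughout in thalamus alone and so had entered the test through the region where they are high.

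**Figure D2:**
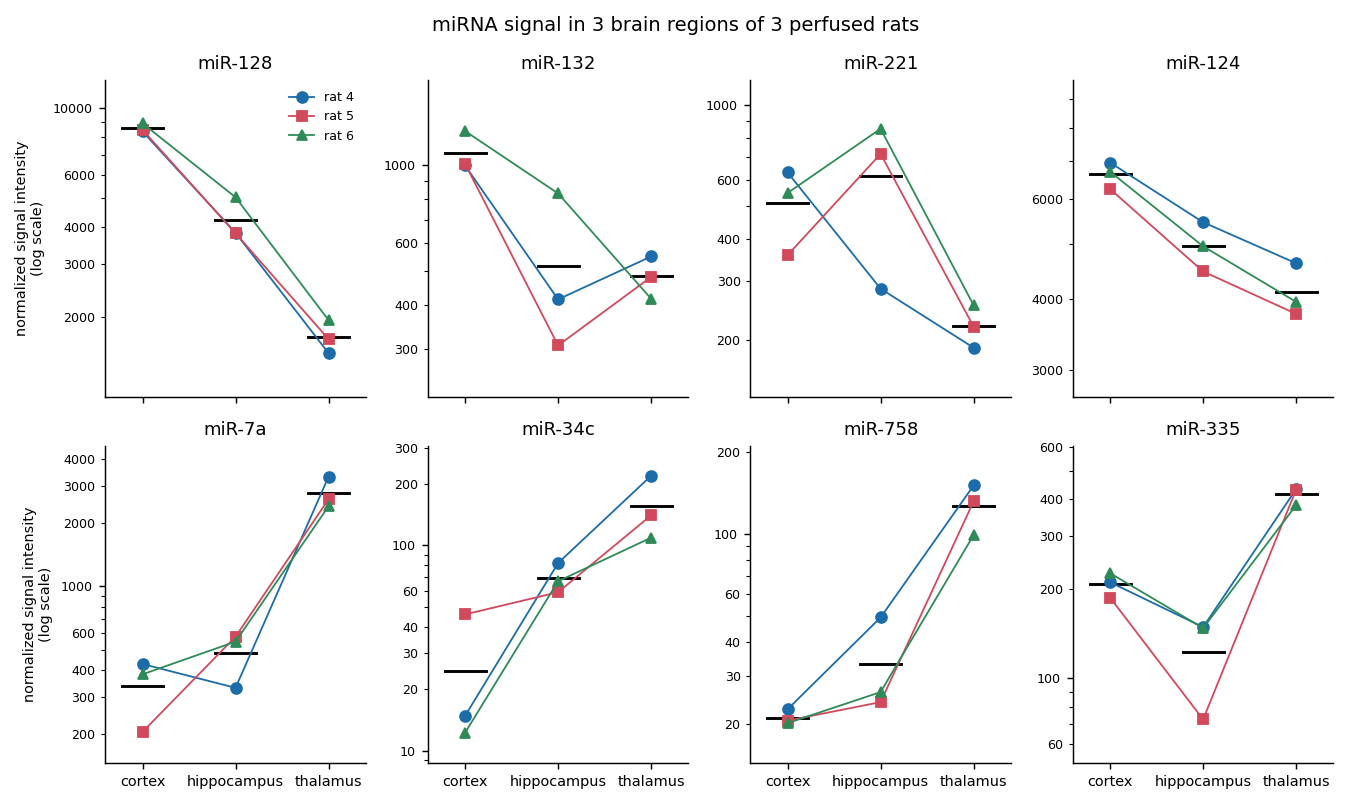
Scaled signal intensity (log axis) of 8 miRNAs in cortex, hippocampus and thalamus, with points of the same rat joined and black bars at the region means. miR-128 falls from cortex to thalamus in all 3 rats, and miR-7a, miR-34c, miR-758 and miR-335 are highest in the thalamus of all 3 rats.

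miR-128 showed a gradient over the 3 regions. It is encoded by 2 genes, at chr8:120963807-120963827 on the minus strand and chr13:42251933-42251953 on the plus strand of GRCr8, which lie in introns of Arpp21 and R3hdm1. In neurons miR-128 is known to restrain excitability by repressing ion channel and signalling genes. Its level was 8371, 8473 and 8912 in the cortex of rats 4, 5 and 6. In hippocampus it was 3826, 3813 and 5035, and in thalamus 1511, 1684 and 1949. No region overlapped another, and the order cortex, hippocampus, thalamus held in all 3 rats. The difference of thalamus from cortex was -2.33 ± 0.15 on the log2 scale (adjusted p = 8.2e-05) and from hippocampus -1.30 ± 0.15 (adjusted p = 0.00119). Both passed under all 5 scalings, with each rat left out and with slide as a block. Cortex exceeded hippocampus by 1.04 ± 0.15 (adjusted p = 0.0296). This was the only call of that comparison. It was lost under quantile normalization, with the median over spots (adjusted p = 0.0622), with slide as a block (adjusted p = 0.0555) and with rat 4, 5 or 6 left out, where the adjusted p was 0.157, 0.0607 and 0.131. An exact permutation test of the regions within rats, over every arrangement, gave p = 0.0278 (two-sided) for miR-128, the smallest value this design allows. From the same arrays the authors had already listed miR-128 as high in cortex and hippocampus and miR-7a as high in thalamus. The permutation p of either miRNA is therefore a description. In samples of whole tissue, fewer cells of a type and less miRNA per cell cannot be told apart, here and in all that follows.

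The other neuronal miRNAs differed less. Of the 21 neuronal miRNAs on the array 14 were tested, and in thalamus against cortex 3 of them fell, 11 were not called and none was higher, beside 5.1% lower and 29.1% higher among all tested miRNAs. The list median was -0.02 beside 0.33 for all tested miRNAs, and it was -0.56 to -0.02 over the 5 scalings. The 3 that fell were miR-128, miR-124 and miR-9. miR-124, which represses non-neuronal genes, was at 6961, 6252 and 6709 in cortex, 5463, 4473 and 4955 in hippocampus and 4625, 3765 and 3953 in thalamus. Its order was the same in all 3 rats, although hippocampus and thalamus overlapped. The difference of thalamus from cortex was -0.69 ± 0.14 (adjusted p = 0.00852), and it passed under all 5 scalings and with slide as a block, but not without rat 4 (adjusted p = 0.0516) or rat 6 (adjusted p = 0.0790). With the median over spots in place of the mean it was -0.25 (adjusted p = 0.648). miR-9, a regulator of neural progenitors, differed by -0.63 ± 0.18 (adjusted p = 0.0369), and this call was lost under 1 of the other 4 scalings, quantile normalization (adjusted p = 0.09235), with the median over spots (adjusted p = 0.114), with a floor 4 times as high (adjusted p = 0.0603), with slide as a block (adjusted p = 0.115) and without rat 4, 5 or 6 (adjusted p = 0.198, 0.0741 and 0.116). miR-138, enriched at synapses, differed by -0.54 ± 0.26 (adjusted p = 0.142). Also not called in thalamus against cortex were miR-218 at -0.98 and miR-9*, the partner strand of miR-9, at -0.03. Of the 14 tested members 6 had a positive difference there. In cortex against hippocampus 13 of the 14 had a positive difference, with a median of 0.29 beside -0.02 for all tested miRNAs, and miR-128 alone was called. The summed signal of the list was 27699.5 to 31112 in cortex, 20082 to 23138 in hippocampus and 17806 to 18401 in thalamus, and miR-128 and miR-124 are part of these sums.

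miR-132 and miR-212 are transcribed together, with mature sequences at chr10:60522091-60522112 and chr10:60521811-60521832, and share the seed AACAGUC. miR-132 responds to neuronal activity and promotes dendrite growth. It was at 998, 1009 and 1251 in cortex, 415, 307 and 831 in hippocampus and 549.6, 481 and 417 in thalamus. All cortex values lay above those of the other regions, while hippocampus and thalamus overlapped. Thalamus fell from cortex by 1.17 ± 0.30 on the log2 scale (adjusted p = 0.0216) under all 5 scalings, but the call was lost with slide as a block (adjusted p = 0.0548), without rat 4 (adjusted p = 0.0878) and without rat 5 (adjusted p = 0.0798). Cortex against hippocampus gave 1.19 ± 0.30 (adjusted p = 0.124). miR-212 differed by -0.61 ± 0.34 between thalamus and cortex (adjusted p = 0.195), so the lower call of miR-132 was 1 among 2 tested members, beside 5.1% lower among all tested miRNAs.

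miR-221 and miR-222 lie next to each other on chromosome X and repress the cell-cycle inhibitor p27. miR-221 was at 630.2, 357 and 547 in cortex, 283.8, 716 and 850.4 in hippocampus and 189, 218.8 and 253 in thalamus. The thalamus values were all below the others, and the cortex and hippocampus values overlapped. The difference of thalamus was -1.18 ± 0.37 from cortex (adjusted p = 0.0409) and -1.35 ± 0.37 from hippocampus (adjusted p = 0.0286), each under all 5 scalings. With slide as a block the adjusted p was 0.128 and 0.109, and with the median over spots 0.148 and 0.0611. Both calls were also lost without rat 5 (adjusted p = 0.0910 and 0.155) and without rat 6 (adjusted p = 0.155 and 0.173). miR-222 gave -0.59 ± 0.37 and -0.45 ± 0.37, with adjusted p of 0.243 and 0.417.

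The other 5 miRNAs that were lower in thalamus than in cortex passed under all 5 scalings. These were miR-146b, a brake on NF-kB signalling, at -0.73 ± 0.17 (adjusted p = 0.0166), miR-195, a cell-cycle regulator of the miR-15 family, at -0.64 ± 0.19 (adjusted p = 0.0396), miR-551b at -0.66 ± 0.19 (adjusted p = 0.0370), miR-22* at -0.61 ± 0.18 (adjusted p = 0.0370) and miR-24, of the miR-23/24/27 clusters, at -0.51 ± 0.15 (adjusted p = 0.0355). In each of these 5, thalamus was below cortex in all 3 rats. With slide as a block all 5 calls were lost, and the adjusted p ranged from 0.0521 for miR-146b to 0.137 for miR-195. Without rat 4, without rat 6 and with the median over spots none of the 5 was called. miR-22* shrank to -0.09 with another background correction, normexp (adjusted p = 0.540), and to -0.04 with a floor 4 times as high (adjusted p = 0.454).

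With all 3 rats and as scaled here, miR-7a had the largest difference between thalamus and cortex of all tested miRNAs, and miR-7b shared its pattern. Without rat 5 the miR-34 probes differed more, at 3.27 to 3.58, beside 2.79 for miR-7a. miR-7a is made from 2 loci, chr17:6278710-6278732, in an intron of Hnrnpk, and chr1:142215818-142215840. It is known in neuroendocrine cells, where it restrains secretion, and in neurons as the miRNA bound by the circular RNA Cdr1as. Its level was 429.1, 205 and 383.6 in cortex, 331, 578 and 548 in hippocampus and 3306, 2586 and 2396 in thalamus. Every thalamus value lay above every value of the other regions, and cortex and hippocampus overlapped. The difference of thalamus was 3.08 ± 0.33 from cortex (adjusted p = 0.000553) and 2.54 ± 0.33 from hippocampus (adjusted p = 0.00166). Both passed under all 5 scalings, with each rat left out and with slide as a block, but not when all 717 entries were tested (adjusted p = 0.0681 and 0.111). Cortex and hippocampus differed by -0.55 ± 0.33 (adjusted p = 0.567). The exact permutation test over regions within rats gave p = 0.0556 for miR-7a, and 0.0833 under 3 of the other scalings, and cortex was above hippocampus in rat 4 and below it in rats 5 and 6.

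miR-7b, which differs from miR-7a by A10U, had the same pattern at 79.1, 40.4 and 60.6 in cortex, 73.2, 88.2 and 120.5 in hippocampus and 491, 386 and 416 in thalamus. Thalamus again lay above both regions without overlap. The difference was 2.89 ± 0.26 from cortex (adjusted p = 0.000274) and 2.22 ± 0.26 from hippocampus (adjusted p = 0.00119), under all 5 scalings and with each rat left out. The passenger strands of the 2 miR-7a hairpins did not show this size of difference. miR-7a-2* lay close to the floor, at 17.8, 10.8 and 17.2 in cortex and 35.1, 31.0 and 26.4 in thalamus, and was detected on 1 of the 3 hippocampus arrays. Its difference from cortex was 1.04 ± 0.34 (adjusted p = 0.0479). This did not pass under any of the other 4 scalings or with a floor 4 times as high, which lies above all its values. The call was also lost without rat 4 (adjusted p = 0.149), without rat 6 (adjusted p = 0.120) and with slide as a block (adjusted p = 0.1835). Against hippocampus, where miR-7a-2* was mostly not above background, no difference is given. miR-7a-1* gave -0.41 ± 0.18 from cortex and -0.26 ± 0.18 from hippocampus (adjusted p = 0.125 and 0.343). With miR-7a-2* counted, 3 of the 4 tested members of the neuroendocrine list were called higher than in cortex, beside 29.1% of all tested miRNAs. Against hippocampus miR-7a-2* is not counted, and miR-7a and miR-7b were called, beside 26% of all tested miRNAs. Under all 5 scalings it was 2 of the 4, miR-7a and miR-7b, in each comparison, beside 10.7% and 10.2%.

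The fifth member of that list, miR-375, defines pituitary and pancreatic endocrine cells. It was detected on 1 of the 3 thalamus arrays and on none of the other 6. Its thalamic mean was 11.2 ± 0.625 (SD, n = 3), against 5659 ± 614 (SD, n = 3) in the pituitary gland of the same atlas. In pituitary gland miR-7a was at 21840 ± 1193 (SD, n = 3), and thalamus ranked 2 among the 55 perfused organs for miR-7a, at 2763 ± 480.4 (SD, n = 3). The summed signal of the 5 members was 282.8 to 562 in cortex, 443 to 720.4 in hippocampus and 2868 to 3865 in thalamus. In thalamus miR-7a makes up most of this sum, which therefore repeats its pattern.

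The miR-34b/c family was also higher in thalamus than in cortex. miR-34b and miR-34c come from a common transcript, with mature sequences at chr8:60306657-60306679 and chr8:60306133-60306155 on the minus strand, and act with the miR-449 family in the formation of motile cilia. miR-34c was at 14.8, 46.2 and 12.2 in cortex, 82.1, 59.2 and 67.0 in hippocampus and 218.6, 140.3 and 109 in thalamus. The 3 regions did not overlap. Thalamus exceeded cortex by 2.88 ± 0.43 (adjusted p = 0.00216), under all 5 scalings, with each rat left out and with slide as a block. The difference was 2.38 without rat 4 and 3.52 without rat 5, whose cortex value is the highest of the 3. miR-34b, detected on 2 of the 3 cortex arrays, and the other miR-34b probe set gave 2.73 ± 0.39 and 2.93 ± 0.44 (adjusted p = 0.0016 and 0.00216). Against hippocampus the 3 differences were 1.08 to 1.17 with adjusted p of 0.0753 to 0.0942, and hippocampus against cortex missed the threshold too (adjusted p = 0.124 for all 3).

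miR-204, which is encoded within Trpm3 and is a marker of choroid plexus and pigment epithelium, followed the same order of means. It was at 246, 241 and 363 in cortex, 569, 278 and 357 in hippocampus and 837, 905 and 781 in thalamus. Thalamus lay above both regions in all 3 rats. The difference from cortex was 1.59 ± 0.27 (adjusted p = 0.00336) and passed under all 5 scalings. The difference from hippocampus was 1.13 ± 0.27 (adjusted p = 0.0176), and that call was lost under some scalings, with slide as a block (adjusted p = 0.0648) and without rat 5 (adjusted p = 0.155) or rat 6 (adjusted p = 0.0690).

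These 4 probe sets were the tested part of a list of 9 choroid plexus and ciliated cell markers. All 4 were higher in thalamus than in cortex, as were 29.1% of all tested miRNAs, with a median of 2.81 beside 0.33 for all tested miRNAs. The other 5, miR-449a, miR-449c-5p, miR-211, miR-204* and miR-34c*, were detected on none of the 9 arrays. The summed signal of the list was 298 to 406 in cortex, 464 to 829 in hippocampus and 1130.2 to 1523 in thalamus. The part of ventricular tissue in these samples was not tested.

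**Figure D3:**
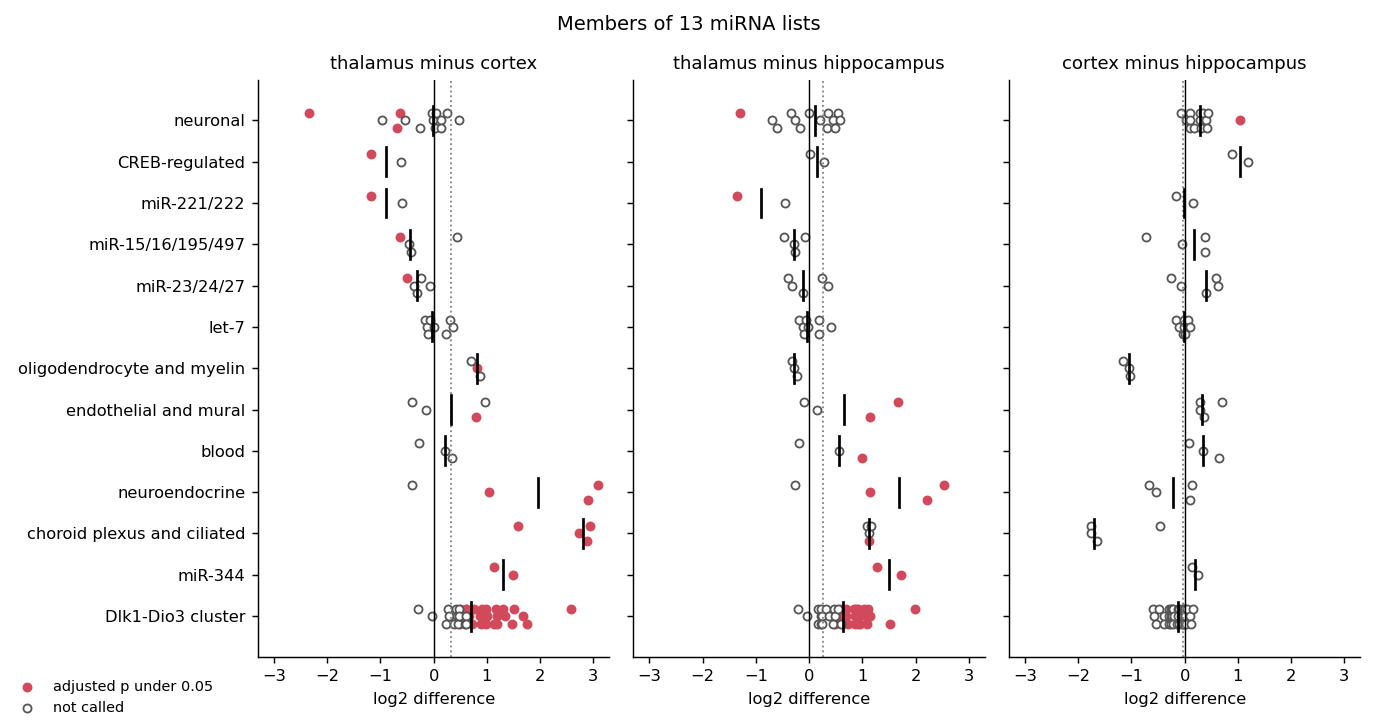
Differences on the log2 scale for the tested miRNAs of 13 lists in each pair of regions, with a black bar at the list median, a dotted line at the median of all tested miRNAs and red points past adjusted p 0.05. In thalamus against cortex all 4 choroid plexus and ciliated members, 3 of 4 neuroendocrine members and 35 of 40 Dlk1-Dio3 members lie right of the dotted line, and 13 of 14 neuronal members lie left of it.

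The miRNAs of the imprinted Dlk1-Dio3 region formed the largest group that was higher in thalamus. They are expressed from the maternal chromosome, mainly in brain, and several regulate synaptic proteins. Of the 78 on the array 40 were tested. In thalamus against cortex 26 of these were higher, none was lower and 14 were not called, beside 29.1% higher among all tested miRNAs. The list median was 0.70 beside 0.33 for all tested miRNAs, and over the 5 scalings it was 0.17 to 0.70, always above the median of all tested miRNAs by 0.24 to 0.40. Under all 5 scalings 11 of the 26 passed, beside 10.7% of all tested. With each rat left out 12 of the 26 passed, beside 24 of the 57 higher calls among all tested miRNAs. With slide as a block 17 of the 26 passed, beside 35 of those 57. In thalamus against hippocampus 24 were higher and 16 were not called, with a median of 0.63 beside 0.26, and 26% of all tested miRNAs were higher. Of these 24, 9 passed under all 5 scalings, beside 10.2% of all tested. With slide as a block 12 passed, beside 27 of the 51 higher calls among all tested miRNAs. Without the hippocampus array of rat 5, 16 passed, beside 37 of those 51. With each rat left out 3 of the 24 passed, namely miR-380*, miR-382 and miR-758, beside 12 of the 51 among all tested miRNAs. In that setting the list did not stand out. In cortex against hippocampus none was called and the median was -0.12 beside -0.02.

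miR-758 had the largest difference within the region. It was at 22.6, 20.5 and 20.1 in cortex, 49.2, 24.0 and 26.1 in hippocampus and 150.4, 131 and 98.9 in thalamus. The regions did not overlap. Thalamus exceeded cortex by 2.57 ± 0.21 (adjusted p = 0.000269) and hippocampus by 2.00 ± 0.21 (adjusted p = 0.00119), and both calls held under all 5 scalings and with each rat left out. miR-380*, from a hairpin about 1 kb away, was at 52.0, 44.8 and 46.4 in cortex, 70.1, 41.8 and 59.2 in hippocampus and 199, 156 and 131 in thalamus. It differed by 1.74 ± 0.19 and 1.52 ± 0.19 (adjusted p = 0.000553 and 0.00131). miR-433, made from the strand opposite to Rtl1, was at 92.3, 92.3 and 85.3 in cortex, 179, 109 and 114 in hippocampus and 356, 291 and 228 in thalamus. Its differences were 1.67 ± 0.19 and 1.14 ± 0.19 (adjusted p = 0.000559 and 0.00461), and the second was lost without rat 5 (adjusted p = 0.0581). All 4 calls of miR-380* and miR-433 passed under all 5 scalings. For both, no thalamus value overlapped those of the other regions.

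Further members showed smaller differences in the same direction. miR-382 was higher in thalamus by 1.19 ± 0.17 and 1.08 ± 0.17, miR-300-3p by 1.35 ± 0.21 and 1.09 ± 0.21, and miR-433* by 1.505 ± 0.19 and 1.03 ± 0.19, all past the threshold under all 5 scalings. Of these, miR-382 also kept both calls with each rat left out, whereas miR-300-3p and miR-433* did so against cortex only. miR-341 and miR-410 gave 1.47 ± 0.19 and 1.197 ± 0.20 against cortex under all 5 scalings, and 0.87 ± 0.19 and 0.91 ± 0.20 against hippocampus, where each was lost under at least 1 other scaling, with slide as a block and without rat 4 or rat 5. miR-127, another transcript opposite to Rtl1, was at 949, 754 and 811 in cortex and 2094, 1492 and 1422 in thalamus, a difference of 0.98 ± 0.15 (adjusted p = 0.00237) that did not pass under every scaling. Not all members moved. miR-376c gave -0.30 ± 0.15 (adjusted p = 0.163) and miR-299 gave -0.02 ± 0.20 (adjusted p = 0.960) in thalamus against cortex.

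**Figure D4:**
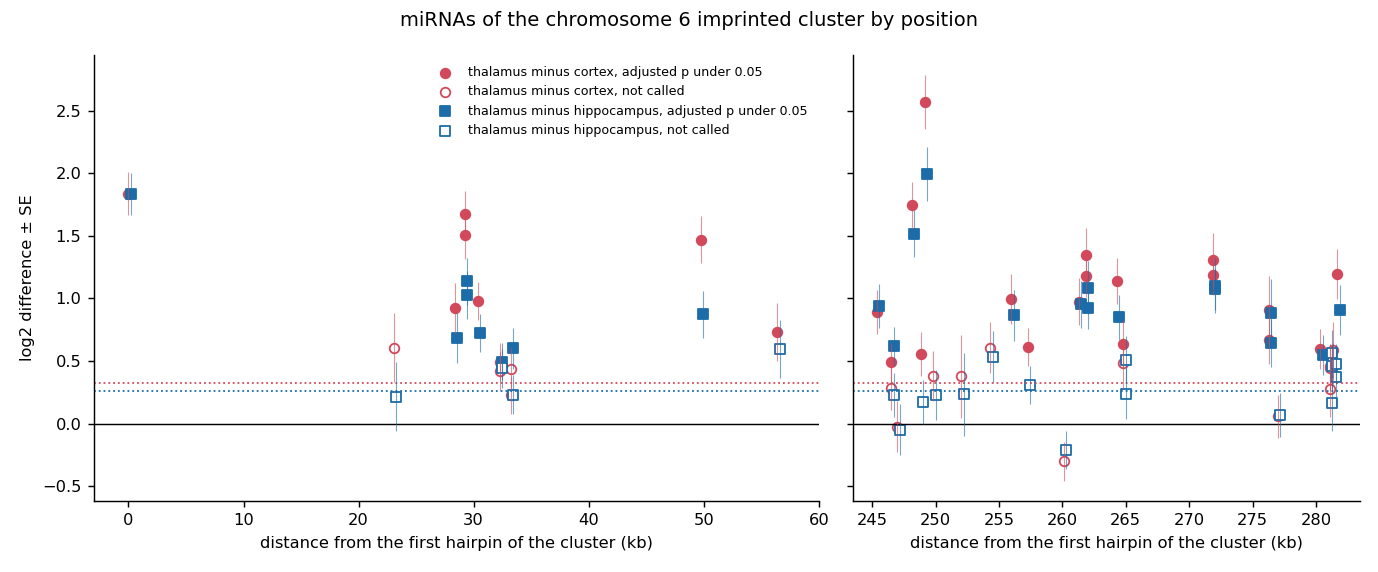
Difference on the log2 scale with SE for the tested miRNAs of the chromosome 6 cluster, by distance in kb of the hairpin from the first hairpin of the cluster, with a dotted line at the median of all tested miRNAs. Members above the line occur in both stretches of the cluster, with miR-758 highest at 2.57 against cortex.

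RefSeq places 52 hairpins of the cluster at chr6:134298084-134579838, a stretch of 281.8 kb, and 43 tested miRNAs fell within it, from 32 hairpins. They included miR-770* and second probe sets of miR-494, miR-487b, miR-496 and miR-409-5p, which the list did not hold. Against cortex these second probe sets gave 0.38, 0.64, 0.06 and 0.45, with adjusted p of 0.384, 0.0369, 0.816 and 0.103. None of them was called against hippocampus. miR-770* was at 16.3, 16.4 and 15.5 in cortex, 17.5, 18.6 and 12.7 in hippocampus and 70.0, 59.9 and 44.8 in thalamus. It was higher in thalamus by 1.84 ± 0.17 in both comparisons (adjusted p = 0.000298 and 0.00119), without overlap and under all 5 scalings. With a floor 4 times as high, near its thalamic level, the adjusted p was 0.127 and 0.147. Its partner strand miR-770 was detected on no array.

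Of the miR-344 family, whose gene for miR-344b-5p is present in 3 copies within chr1:124028549-124044601, 5 members are on the array, 2 were tested and 2 were detected on no array. Both tested members were called higher in thalamus than in either other region, beside 29.1% and 26% of all tested miRNAs. miR-344b-5p was at 16.5, 12.3 and 19.0 in cortex, 14.6, 11.3 and 14.0 in hippocampus and 42.6, 50.2 and 39.4 in thalamus. The thalamus values stood clear of all others. The difference was 1.48 ± 0.21 from cortex (adjusted p = 0.0016) and 1.73 ± 0.21 from hippocampus (adjusted p = 0.00119), under all 5 scalings and with each rat left out. With a floor 4 times as high, which lies within the thalamic values, both calls were lost. Among the 55 perfused organs, thalamus ranked 1 for miR-344b-5p, cortex 3 and hippocampus 4. miR-344a-3p, the other tested member, was higher by 1.13 ± 0.21 and 1.27 ± 0.21 (adjusted p = 0.00519 and 0.00461), the latter under all 5 scalings and the former not after quantile normalization (adjusted p = 0.0621) or in the authors' table (adjusted p = 0.0515). Both calls were lost without rat 5 (adjusted p = 0.0643 and 0.0581).

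A few dim miRNAs were above background in all 3 rats in thalamus but not in the other regions. miR-296* was not well above background on any cortex or hippocampus array and was at 25.0, 29.2 and 27.0 in thalamus. Against the dim regions only a bound can be given, taken per array from the higher of the floor, the lowest detected signal and the own value of the miRNA. miR-296* was at least 2.49-fold higher in thalamus than in cortex and at least 2.48-fold higher than in hippocampus. miR-532-5p, from an X-linked miRNA cluster, was at 31.0, 25.7 and 20.7 in thalamus, was detected on 1 cortex array and on no hippocampus array, and was at least 2.29-fold higher than in hippocampus. Both entered the test through thalamus alone, so these values are a description and no p is given.

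Another set of miRNAs had its lowest mean in hippocampus. miR-335, which lies in an intron of the imprinted gene Mest, was at 210.2, 187 and 225 in cortex, 148, 72.5 and 147 in hippocampus and 433, 431 and 382 in thalamus. None of the regions overlapped. Thalamus exceeded hippocampus by 1.83 ± 0.24 (adjusted p = 0.00166), under all 5 scalings and with each rat left out, and cortex by 1.00 ± 0.24 (adjusted p = 0.0173), which was lost under some scalings, with slide as a block (adjusted p = 0.0615), without rat 4 (adjusted p = 0.0991) and without rat 6 (adjusted p = 0.0662). Cortex exceeded hippocampus by 0.83 ± 0.24, short of the threshold (adjusted p = 0.221). miR-873 was at 22.0, 28.3 and 32.3 in cortex, 11.0, 11.3 and 13.6 in hippocampus and 42.4, 35.0 and 28.7 in thalamus. Its hippocampus values were all below the rest, and cortex and thalamus overlapped. The difference of thalamus from hippocampus was 1.55 ± 0.22 (adjusted p = 0.00243; 0.0581 without rat 5) and passed under all 5 scalings but not with a floor 4 times as high, above all its values, and that of cortex from hippocampus was 1.19 ± 0.22 (adjusted p = 0.0752).

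miR-135b, a known repressor of the Wnt pathway gene Apc, was at 73.7, 68.9 and 83.5 in cortex, 80.2, 19.4 and 63.9 in hippocampus and 172, 202 and 176 in thalamus. The thalamus values lay above all others, and the hippocampus of rat 5 was far below its fellows. Thalamus exceeded hippocampus by 1.98 ± 0.41 (adjusted p = 0.0118; 0.0549 without rat 6) under all 5 scalings. That difference was 1.35 without the hippocampus array of rat 5 (adjusted p = 0.00602) and 1.28 without rat 5 (adjusted p = 0.0267). Thalamus exceeded cortex by 1.28 ± 0.41 (adjusted p = 0.0424), which was lost under some, with slide as a block (adjusted p = 0.0949) and without rat 4 (adjusted p = 0.124) or rat 6 (adjusted p = 0.152). Among the 55 organs thalamus ranked 2 for miR-135b, after the medulla oblongata at 219.2 ± 85.4 (SD, n = 3).

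Cortex and hippocampus were the closest pair, and the hippocampus of rat 5 weighed on their comparison. On PC2, which accounted for 14.5% of the variation, this sample lay at 5.73 while the other hippocampus samples lay at -2.93 and -3.45. For a group of miRNAs it was at the level of the cortex. miR-338, which promotes oligodendrocyte maturation, was at 1465, 1125 and 883 in cortex, but at 3747, 1158 and 2806 in the hippocampus of rats 4, 5 and 6. miR-219-5p, its partner in that role, was at 412, 229.6 and 258 in cortex and at 887, 299.6 and 818 in hippocampus. In both, the hippocampus of rat 5 fell within the cortex range and the other hippocampus samples lay above it.

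**Figure D5:**
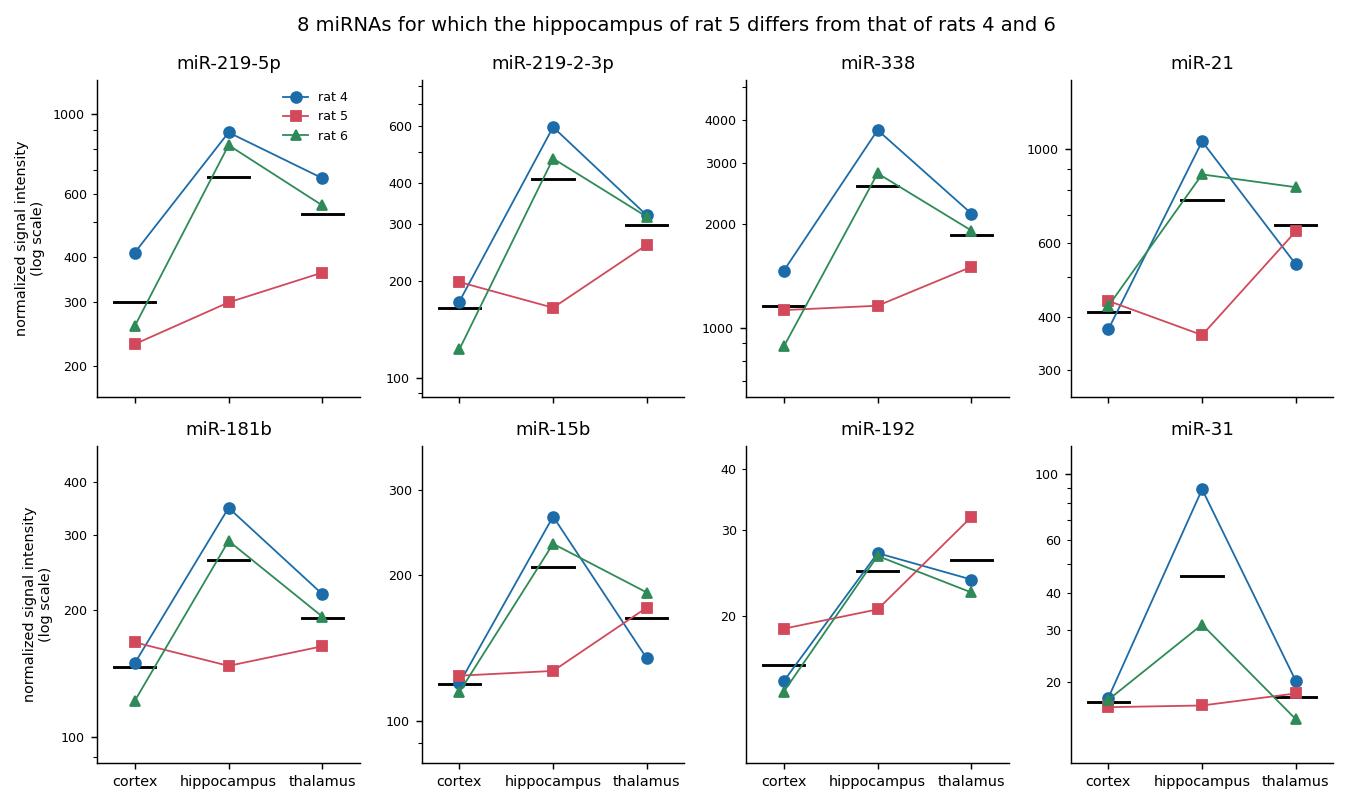
Scaled signal intensity (log axis) of 8 miRNAs in cortex, hippocampus and thalamus, with points of the same rat joined and black bars at the region means. In hippocampus rat 5 lies below rats 4 and 6 for all 8, at 299.6 for miR-219-5p against 887 and 818. The 8 were picked from the miRNAs called in cortex against hippocampus once that array was left out. The low position of rat 5 in them therefore follows from the choice.

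With all 9 arrays, cortex against hippocampus gave -1.05 ± 0.24 for miR-219-5p (adjusted p = 0.124), -1.16 ± 0.40 for miR-219-2-3p (adjusted p = 0.259) and -1.02 ± 0.30 for miR-338 (adjusted p = 0.221). Without the hippocampus array of rat 5, a choice made after seeing that it stood apart, 12 miRNAs were called in this comparison in place of 1. miR-128 remained higher in cortex by 0.98 ± 0.15 (adjusted p = 0.0205). The 11 others were lower in cortex, among them miR-219-2-3p at -1.75 ± 0.23 (adjusted p = 0.0192), miR-31 at -1.61 ± 0.33 (adjusted p = 0.0419), miR-338 at -1.44 ± 0.20 (adjusted p = 0.0192) and miR-219-5p at -1.35 ± 0.18 (adjusted p = 0.0192). miR-21, which is broadly expressed in glia and other cells, gave -1.23 ± 0.22 (adjusted p = 0.0243). miR-34b, detected on 2 of the 3 cortex arrays and at 14.0, 33.9 and 11.2 there, was also called (adjusted p = 0.0410). The other 5 were miR-181b, miR-15b, miR-92a, miR-192 and miR-25, at -1.13 to -0.82. The same setting gave 68 higher and 13 lower in thalamus against cortex, and 38 higher and 14 lower in thalamus against hippocampus. There miR-221 lost its call (adjusted p = 0.110), as did miR-204 (adjusted p = 0.0651), while miR-128, miR-7a, miR-7b, miR-758 and miR-335 kept theirs. Whether the dissected piece of rat 5 differed from the others was not tested.

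The same myelin miRNAs bear on the thalamus. In thalamus miR-219-5p was at 662, 362 and 557, above the cortex of the same rat each time. The difference was 0.82 ± 0.24 (adjusted p = 0.0370). This call was lost under each of the other 4 scalings, at 0.27 to 0.57 (adjusted p = 0.0792 to 0.309). It was also lost with slide as a block (adjusted p = 0.0897), without rat 4 (adjusted p = 0.139) and without rat 6 (adjusted p = 0.142). miR-338 and miR-219-2-3p gave 0.69 ± 0.30 and 0.87 ± 0.40 in that comparison (adjusted p = 0.114 and 0.125). Against hippocampus the 3 members gave -0.33 to -0.23 and none was called, beside 26% higher and 1.02% lower among all tested miRNAs. Their summed signal was 1266 to 2054 in cortex, 1626 to 5246 in hippocampus and 2128 to 3133 in thalamus, and the other 4 members of the list were detected on no array. The part of white matter in the other differences was not tested.

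Markers of vessels and blood varied between samples. miR-143, which is made in smooth muscle and pericytes, was at 343, 398 and 844 in cortex, 391, 235 and 291 in hippocampus and 491, 1065 and 1608 in thalamus. Thalamus exceeded hippocampus by 1.66 ± 0.39 (adjusted p = 0.0161), a call lost under some scalings, without the hippocampus array of rat 5 (adjusted p = 0.0653), without rat 5 (adjusted p = 0.159) and without rat 6 (adjusted p = 0.116). Without rat 4 the difference was 2.32. Thalamus was above cortex in all 3 rats, by 0.96 ± 0.39 (adjusted p = 0.0953). miR-145, its partner, was not well above background in any hippocampus sample and was at least 2.21-fold higher in thalamus, through which alone it had entered the test, so that no p is given. In cortex it was detected in rat 6 alone, at 23.0, and in thalamus it was at 20.4, 18.7 and 36.3. miR-199a-3p was higher by 1.73 ± 0.40 (adjusted p = 0.0156) and the myeloid miR-223 by 0.99 ± 0.25 (adjusted p = 0.0200). miR-199a-3p lost its call with the percentile over miRNAs detected on all 9 arrays (adjusted p = 0.0591) and in the authors' table (adjusted p = 0.0619). The call of miR-223 was lost under each of the other 4 scalings, at 0.47 to 0.67 (adjusted p = 0.114 to 0.197). miR-199a-3p also lost its call without rat 5 (adjusted p = 0.140), rat 6 (adjusted p = 0.0662) or the hippocampus array of rat 5 (adjusted p = 0.0551), and miR-223 without rat 4 (adjusted p = 0.0615) or rat 5 (adjusted p = 0.115) and with slide as a block (adjusted p = 0.0917). The endothelial miR-126 gave 0.15 ± 0.25 (adjusted p = 0.663). The summed signal of the endothelial and mural list was 890.4 to 1572 in cortex, 563 to 1087 in hippocampus and 979 to 2196 in thalamus, and that of the blood list, with 3 of 8 members tested, was 293 to 375.05, 207 to 377 and 275 to 323. Their part in other differences was not tested. Of the epithelial list, the sensory cluster and the HOX cluster no member was tested, and nearly all were below background, with miR-200c detected by a probe set on 1 thalamus array and miR-10a-5p on 1 cortex and 1 hippocampus array.

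None of the 8 let-7 members, which are abundant in mature neurons, was called in any comparison, and their median was -0.03, -0.04 and -0.01 in thalamus against cortex, thalamus against hippocampus and cortex against hippocampus, beside 0.33, 0.26 and -0.02 for all tested miRNAs. Over the 5 scalings the let-7 median against cortex ran from -0.57 to 0.07. In the same order of comparisons, 29.1%, 26% and 0.51% of all tested miRNAs were called higher and 5.1%, 1.02% and 0% lower. In the group of miR-99, miR-100 and miR-125 none of 5 tested entries was called, beside these same shares of all tested miRNAs. In the miR-181 family miR-181c and miR-181d were higher in thalamus than hippocampus by 0.75 ± 0.19 and 0.71 ± 0.19 (adjusted p = 0.0208 and 0.0243). Both calls were lost under every other scaling. There miR-181c was at 0.24 to 0.43 (adjusted p = 0.0891 to 0.219) and miR-181d at 0.28 to 0.39 (adjusted p = 0.1185 to 0.195). Both calls were also lost without rat 5 (adjusted p = 0.124 and 0.132), without rat 6 (adjusted p = 0.0742 and 0.110) and without the hippocampus array of rat 5 (adjusted p = 0.0551 and 0.0600). In the miR-29 family miR-29c* was higher in thalamus than cortex by 0.51 ± 0.16 (adjusted p = 0.0424), and its sign turned under 2 of the other scalings. That call was lost with any rat left out, at adjusted p of 0.136 to 0.1406.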

How the data were processed

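The authors deposited Agilent Feature Extraction output (version 10.7.3) of 1-colour miRNA arrays, from which the processed signal intensity of each spot was used. Their normalized table was used as an alternative. From the intensities, outlier spots (1.63 to 3.11% per array) were dropped, spots were averaged per probe and then per miRNA, arrays were scaled to the 75th percentile over 37 miRNAs detected on all 180 arrays (target 2118), a floor of 10.8 was set and log2 was taken. The 75th percentile was 1592 to 2761 before scaling. The number of arrays, 3 per region, limits the precision. limma 3.58.1 (R 4.3.3) fitted region with rat as a block on the 9 arrays (4 residual degrees of freedom). The regions of a number come from the same rat. Deviations from region means correlated at -0.20 to 0.52 (mean 0.10) within rats and -0.05 on average between rats. These deviations cancel over the 3 rats of a region, so the between-rat value is tied to the within-rat value and is no separate reference. Named miRNAs were the largest differences past the threshold that held in every rat, plus the called members of the lists. The members and lists were chosen with earlier results of these data known. The fit was tested on simulated data. The background alternative (normexp, offset 50) used the median spot signal, the mean not being used here. No per-sample column was left unassigned. Sequences and positions are from RefSeq, GRCr8.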

Additional observations from a re-analysis of the deposited data

How the results depend on the processing

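Counts are given as higher and lower, in the order thalamus against cortex, thalamus against hippocampus, cortex against hippocampus. The main counts were 57 and 10, 51 and 2, and 1 and 0, with 60 past the F test. The scalings gave 38 and 18, 27 and 12, 2 and 1 (percentile over miRNAs detected on all 9 arrays), 23 and 55, 27 and 35, 2 and 0 (over all miRNAs), 26 and 29, 25 and 21, 0 and 0 (quantile), and 24 and 33, 25 and 20, 4 and 0 (authors' table). A floor 4 times as high gave 33 and 5, 34 and 3, 2 and 0, with 31 past the F test. The median over spots gave 41 and 2, 37 and 1, 0 and 0. Testing all 717 entries gave 10 and 2, 2 and 1, 0 and 0, with 4 past the F test. The limma trend gave 3 higher in cortex than hippocampus. Without the replicate block the counts were 52 and 10, 47 and 2, and 2 and 0. Of the main calls 51 and 10, 47 and 2, and 1 remained. With slide as a block, which leaves rats 5 and 6 to inform the thalamus, they were 38 and 2, 28 and 1, 0 and 0, with 23 past the F test. The fit over all perfused arrays, which takes its spread from other organs, gave 81 and 17, 76 and 9, and 16 and 19, with 108 past the F test. Without the hippocampus array of rat 5, chosen after seeing the data, 68 were higher and 13 lower in thalamus than cortex, 81 passed the F test, 14 were lower in thalamus than hippocampus and 11 lower in cortex than hippocampus. Leaving out each rat in turn gave 28 to 36 and 2 to 4, 15 to 33 and 1 to 3, 0 to 0 and 0 to 7, and 24 to 31 past the F test. The exact permutation p of miR-128 was then 0.167, the smallest that 2 rats allow. PC1 took 51.45%, 51.9%, 50.8% and 42.9% under the scalings, 48.0% with the median over spots and 57.6% to 64.0% with a rat left out. In thalamus against cortex, miR-29c* turned to -0.037 with the percentile over all miRNAs and -0.015 after quantile normalization. Of 51 differences of named miRNAs, 7 kept direction and side of the threshold in all 19 alternatives. The cause of these changes was not tested. Signals near the floor limit the folds of dim miRNAs.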

Other observations

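The levels of these miRNAs in other nervous organs of the perfused rats, on the same scaling, are given as means ± SD (n = 3) without a test. miR-128 was at 3377 ± 379 in cerebellum, 1592 ± 163 in medulla oblongata and 999 ± 28.7 in cervical spinal cord, and cortex, hippocampus and thalamus ranked 1, 2 and 5 among the 55 organs. miR-124 was highest in cerebellum at 11001 ± 1964, and cortex, hippocampus and thalamus ranked 3, 4 and 5. miR-7a was at 76.1 ± 3.37 in cerebellum and 181 ± 50.1 in medulla oblongata, beside its thalamic mean of 2763 ± 480.4. miR-221 was at 11.1 ± 0.395 in cerebellum and 48.0 ± 11.7 in medulla oblongata, and hippocampus and cortex ranked 1 and 2 for it.

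For miR-758, miR-433 and miR-382 of the chromosome 6 cluster, thalamus ranked 1 among the 55 organs. miR-758 was at 57.3 ± 6.99 in medulla oblongata and 27.4 ± 0.637 in pituitary gland, and miR-433 was at 140.8 ± 6.77 and 230.5 ± 10.2 in the same organs. miR-335 was at 2256 ± 197 in pituitary gland, where it ranked 1, and thalamus ranked 3. miR-338 was at 4470 ± 381 in cervical spinal cord and miR-219-5p at 1344 ± 66.6, above their means in all 3 forebrain regions. miR-204 was at 2333 ± 592 in optic nerve and 1565 ± 281 in cerebellum, both above its thalamic mean of 841 ± 62.2.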
